A study of Sus scrofa with 3 samples.

Results

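De novo fatty acid synthesis turns citrate into saturated and then unsaturated fatty acids. The genes of this route were followed in visceral fat of male pigs that were left intact (IM), castrated (CM), or castrated and then given testosterone (CMT). The set was chosen by name, with no threshold on measured values but with earlier results of these data known. The shares over all genes given beside its counts are therefore no test of the set. The genes had to be of type mRNA in the deposited values. Of 10 names, 8 met this rule among 22826 mRNA genes, namely ACLY, ME1, ACACA, FASN, THRSP, SCD, FADS2 and FADS1. ELOVL6 was listed as miscRNA and stayed outside the rule, and ELOVL5 was not analysed here. All pigs were Chinese Wuzhishan miniature males, 6 to 7 months old when obtained, and all 3 groups ate a diet rich in fat and cholesterol (HFC) for 12 weeks. IM pigs underwent a sham incision, CM pigs were castrated, and CMT pigs were castrated and injected each week with testosterone propionate at 10 mg/kg. The tissue was retroperitoneal fat, and RNA of several pigs was mixed into 1 library per group (4 pigs by the study's methods, between 4 and 6 by the sample labels). No comparison between groups therefore has a replicate check, and every difference below is a difference between libraries.

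In this route ATP citrate lyase splits cytosolic citrate into acetyl-CoA and oxaloacetate. Acetyl-CoA carboxylase makes malonyl-CoA from it, fatty acid synthase builds palmitate with the help of NADPH, and elongases and desaturases then lengthen the chain and introduce double bonds. In pigs, adipose tissue is the main site of this synthesis, and insulin raises the expression of its genes through SREBP-1c while carbohydrate acts through ChREBP.

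Expression is given in UQRPKM, that is reads per kilobase of gene divided by the library's own upper quartile, so levels of different genes can be set side by side. The reads behind each value were recovered from these numbers, at the shortest gene length that gave whole reads. They are lower limits where the counts of a gene share a factor. They came to 14844063, 13582288 and 13449107 on mRNA genes in IM, CM and CMT. Intervals are exact Clopper-Pearson 95% intervals (exact Poisson for single levels) from these reads and cover counting error only. A gene was called at a 1.5-fold difference with at least 1 UQRPKM in both libraries.

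Markers of the labelled tissue were abundant. Of 15 adipocyte markers 12 were listed, and their reads made up 2.57%, 2.67% and 2.04% of mRNA reads in IM, CM and CMT. Markers of other tissues stood apart in single libraries. The 16 listed hepatocyte markers summed to 2572, 11372 and 1753 UQRPKM, of which APOA1 alone held 2539, 2339 and 1714. ALB had 2.61, 2910 and 4.00 UQRPKM. The 13 listed skeletal muscle markers summed to 102, 85.8 and 7048 UQRPKM, with CKM, MB and TNNT3 listed at 0 throughout. Whether these marker RNAs came from other tissue was not tested. Liver expresses the fatty acid synthesis genes as well, and the part of such RNAs in the results below was not tested either.

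Taken over the 8 genes, the route held 1.09% (95% interval 1.08 to 1.09) of mRNA reads in IM, 1.19% (1.18 to 1.19) in CM and 0.721% (0.717 to 0.726) in CMT. FASN and SCD together supplied 73.2%, 78.2% and 77.0% of the reads on the set. By recovered reads, the summed share was thus lowest in CMT and highest in CM, and the intervals of the 3 libraries did not overlap. These shares and their order depend on which genes have reads that are lower limits, and the intervals do not cover this. Levels in UQRPKM do not depend on it. Summed per length, IM stood first, with 32159 UQRPKM beside 31251 in CM and 18676 in CMT. By level per length, FASN, SCD, ACLY and THRSP were each above at least 98.2% of mRNA genes in every library. FADS1, the lowest of the set, was above 69.4% of them in CMT and 72.2% in IM. These percentages are over all 22826 mRNA genes, of which 15806, 15811 and 15785 were above 0 in IM, CM and CMT.

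**Figure D1:**
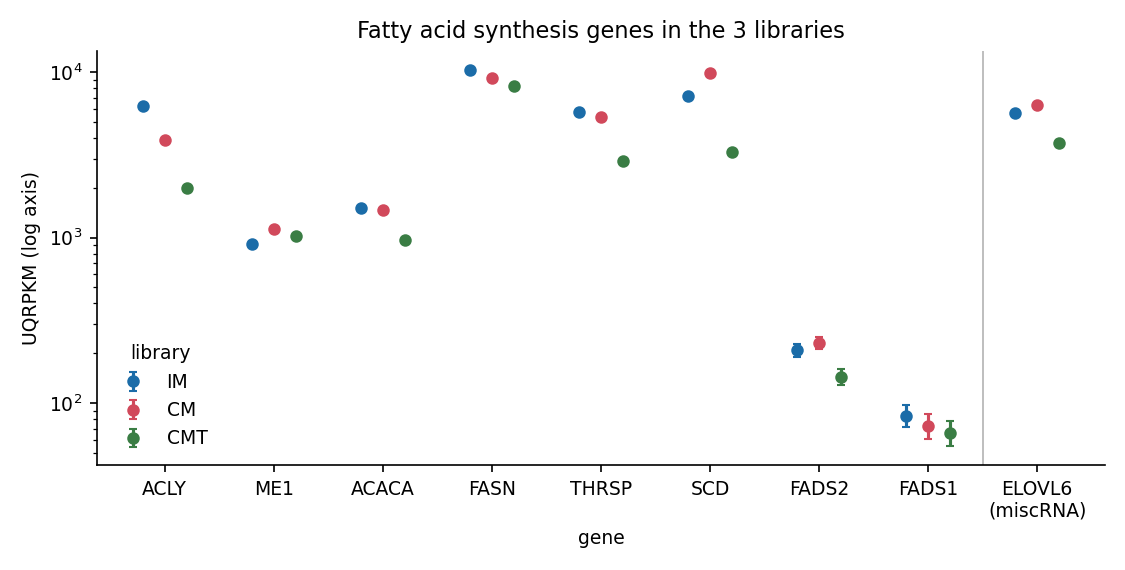
Level of each gene (UQRPKM, log axis) in the IM, CM and CMT libraries, 1 point per library, with exact Poisson 95% intervals from reads. ELOVL6, of type miscRNA and outside the set, is shown last. ACLY steps down from 6272 over 3879 to 2007 UQRPKM, and SCD is highest in CM at 9909 and lowest in CMT at 3308.

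Carbon and NADPH supply was represented by ACLY and ME1. ACLY, which provides cytosolic acetyl-CoA, had 6272, 3879 and 2007 UQRPKM (IM, CM and CMT, the order used from here on) from 16318, 9618 and 5117 reads. It was the only gene of the 8 called in CM versus IM, 1.62-fold lower with a log2 ratio of -0.69 (-0.73 to -0.66). In CMT it was 1.93-fold lower than in CM (log2 -0.95, interval -0.9997 to -0.90) and 3.12-fold lower than in IM (log2 -1.64, -1.69 to -1.60). Only 1.24% of tested mRNA genes had a lower ratio than ACLY in CMT versus IM. ME1, the cytosolic malic enzyme that yields NADPH, had 912, 1127 and 1017 UQRPKM from 2985, 3515 and 3262 reads. Its level was highest in CM, and none of its ratios reached 1.5-fold. The log2 ratio was 0.31 (0.23 to 0.38) in CM versus IM, -0.15 (-0.22 to -0.08) in CMT versus CM and 0.16 (0.09 to 0.23) in CMT versus IM. ME1 was the one gene of the set above its IM level in CMT.

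The synthesis of palmitate was represented by ACACA, FASN and THRSP. ACACA, the cytosolic acetyl-CoA carboxylase that commits acetyl-CoA to fatty acids, had 1507, 1467 and 962 UQRPKM from 14898, 13813 and 9314 reads. IM and CM were within 1.03-fold of each other (log2 -0.04, -0.07 to -0.01), and CMT lay below both. The difference was 1.52-fold from CM (log2 -0.61, -0.65 to -0.57) and 1.57-fold from IM (log2 -0.65, -0.69 to -0.61), and the first of these intervals reached across the threshold of 1.5-fold. Scaled by total mRNA reads, ACACA missed the threshold in both comparisons (log2 -0.55 and -0.54), and scaled by the median ratio of all mRNA genes it missed it against IM (-0.57).

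FASN, the multifunctional enzyme that assembles palmitate, had 10283, 9236 and 8276 UQRPKM from 63419, 54286 and 50010 reads. Its highest and lowest levels lay within 1.24-fold of each other. FASN was 1.11-fold lower in CM than in IM (log2 -0.15, -0.17 to -0.14), 1.12-fold lower in CMT than in CM (log2 -0.16, -0.18 to -0.14) and 1.24-fold lower in CMT than in IM (log2 -0.31, -0.33 to -0.30). None of these differences was called. THRSP, also named Spot 14, is a small nuclear and cytosolic protein that promotes lipogenesis. It had 5704, 5330 and 2896 UQRPKM from 8457, 7531 and 4207 reads, so that IM and CM lay near each other and CMT well below. The log2 ratio was -0.10 (-0.14 to -0.05) in CM versus IM, -0.88 (-0.93 to -0.83) in CMT versus CM and -0.98 (-1.03 to -0.92) in CMT versus IM.

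Desaturation was represented by SCD, FADS2 and FADS1. SCD, stearoyl-CoA desaturase, introduces the first double bond into palmitate and stearate. It had 7188, 9909 and 3308 UQRPKM from 54697, 71856 and 24667 reads. SCD was 1.38-fold higher in CM than in IM (log2 0.46, 0.45 to 0.48), short of the threshold, and this was the largest positive ratio of the set. In CMT it was 2.995-fold lower than in CM (log2 -1.58, -1.60 to -1.56) and 2.17-fold lower than in IM (log2 -1.12, -1.14 to -1.10). Of the tested mRNA genes, 1.79% had a lower ratio than SCD in CMT versus CM.

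FADS2 and FADS1, the delta-6 and delta-5 desaturases of polyunsaturated fatty acids, were far lower. FADS2 had 208, 231 and 144 UQRPKM from 462, 488 and 314 reads, and FADS1 had 83.5, 72.2 and 65.6 UQRPKM from 165, 136 and 127 reads. FADS2 was 1.60-fold lower in CMT than in CM (log2 -0.68, -0.89 to -0.47) and 1.44-fold lower than in IM (log2 -0.53, -0.74 to -0.32), and only the first was called. In CM versus IM its log2 ratio was 0.15, with an interval from -0.04 to 0.34 that included 0. For FADS1 the intervals in CM versus IM (-0.55 to 0.13) and in CMT versus CM (-0.50 to 0.22) included 0, so no difference was detectable at this depth. In CMT versus IM the log2 ratio of FADS1 was -0.35 (-0.69 to -0.01), which was not called and became -0.07 when scaled by adipocyte markers. In the RefSeq gene table of Sscrofa11.1, which is not the build of these files, FADS3, FADS2 and FADS1 are neighbours. FADS3 had 237, 196 and 187 UQRPKM and was called in no comparison.

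**Figure D2:**
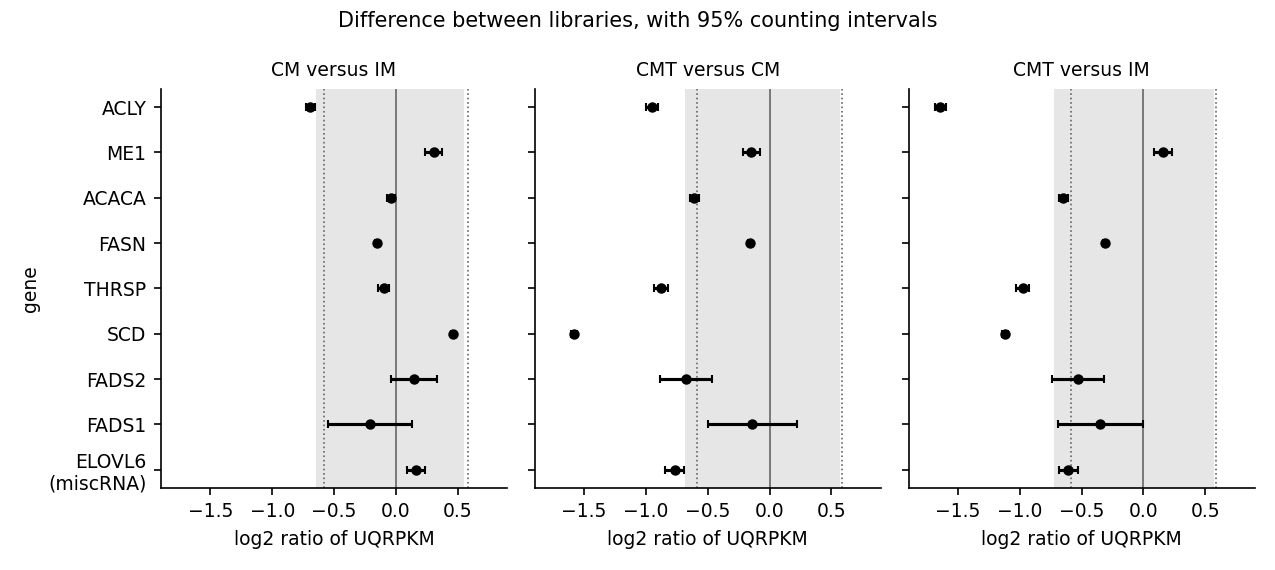
Log2 ratio of UQRPKM for each gene in the 3 comparisons, with 95% counting intervals, the 1.5-fold thresholds as dotted lines and the central 95% of mRNA genes that reached 50 UQRPKM in both libraries shaded. ELOVL6, of type miscRNA, is shown last and is not among the 8 genes of the set. In CMT versus CM all 8 genes lie below 0 (5 of 8 when scaled by adipocyte markers), and SCD at -1.58 and ACLY at -0.95 lie farthest out.

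CM versus IM asks what castration does under the HFC diet. In this comparison the set showed no common direction, with 5 genes below and 3 above 0 and a median log2 ratio of -0.07, beside -0.06 over the 14123 tested mRNA genes. ACLY was lower, while SCD and ME1 had the largest positive ratios. The genes called were 1 of 8 lower and 0 of 8 higher in CM. Over all tested mRNA genes 10.4% were called lower and 8.38% higher, so the count of 1 is near the background. At 2-fold no gene of the set was called, against a background of 4.21%. The exact binomial test on reads, which sets 1 library against another rather than 1 condition against another, kept ACLY beside a background of 5.57% (adjusted p under 0.05 by Benjamini-Hochberg over all mRNA genes with reads, together with the fold).

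CMT versus CM asks what testosterone replacement does in castrated pigs. Every one of the 8 genes had less in CMT, although FASN, ME1 and FADS1 turned positive when the libraries were scaled by adipocyte markers. The log2 ratios ran from -1.58 to -0.14 with a median of -0.64, beside -0.02 over the 14098 tested genes. SCD, ACLY, THRSP, FADS2 and ACACA were called, that is 5 of 8 lower and 0 of 8 higher. Over all tested genes, 9.97% were called lower and 9.53% higher. With at least 50 UQRPKM in both libraries the share called lower was 3.58%, with the same 5 genes of the set among them. The central 95% of log2 ratios ran from -0.67 to 0.56 over these genes and from -0.80 to 0.48 over the 901 genes with at least 900 UQRPKM, so its lower end was farther out at high levels. The 5 genes also passed the exact binomial test on reads (background 5.4%), and at 2-fold only SCD was left (background 4.46%). The interval lay wholly past 1.5-fold for SCD, ACLY and THRSP, but not for FADS2 and ACACA.

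In CMT versus IM, castrated pigs with replaced testosterone are set against pigs with their own. This comparison shares its libraries with the other two, so its ratios are not independent of theirs. Here 7 of 8 genes were lower in CMT, with a median log2 ratio of -0.59 beside -0.08 over the 14151 tested genes. ACLY, SCD, THRSP and ACACA were called lower and none higher, 4 of 8 against a background of 11.9% lower and 8.81% higher. With at least 50 UQRPKM in both libraries the background was 5.29%, and with the exact binomial test on reads 7.27%, and both rules called the same 4 genes. At 2-fold ACLY and SCD were left (background 4.25%). With at least 50 UQRPKM in CM versus IM, ACLY was the gene called, and the background was 3.23%.

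Most adipocyte markers, none of them part of the set, were also lower in CMT. Among 11 markers above 0, CMT was below CM for 10, with 2 of them called (PLIN4 and AQP7), with a median log2 ratio of -0.24. PLIN4, a lipid droplet coat protein, had 8944, 9349 and 4585 UQRPKM, whereas ADIPOQ, the adipokine adiponectin, had 74928, 69193 and 63873. In bulk tissue, fewer adipocytes and less RNA per adipocyte cannot be told apart. When each library was scaled to the median ratio of these markers, all log2 ratios of CMT to CM and of CMT to IM moved up by 0.28. SCD, ACLY and THRSP were then still called lower in both comparisons, 3 of 8 beside backgrounds of 5.76% against CM and 6.05% against IM. Against CM, THRSP passed the 1.5-fold threshold by little (log2 -0.60). The split of all called genes moved from 1343 higher and 1406 lower to 2672 and 812 in the first comparison, and from 1246 and 1690 to 2475 and 856 in the second. ACACA and FADS2 were no longer called against CM, nor ACACA against IM. In CM versus IM this scaling left ACLY as the gene called, beside a background of 10.5%.

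**Figure D3:**
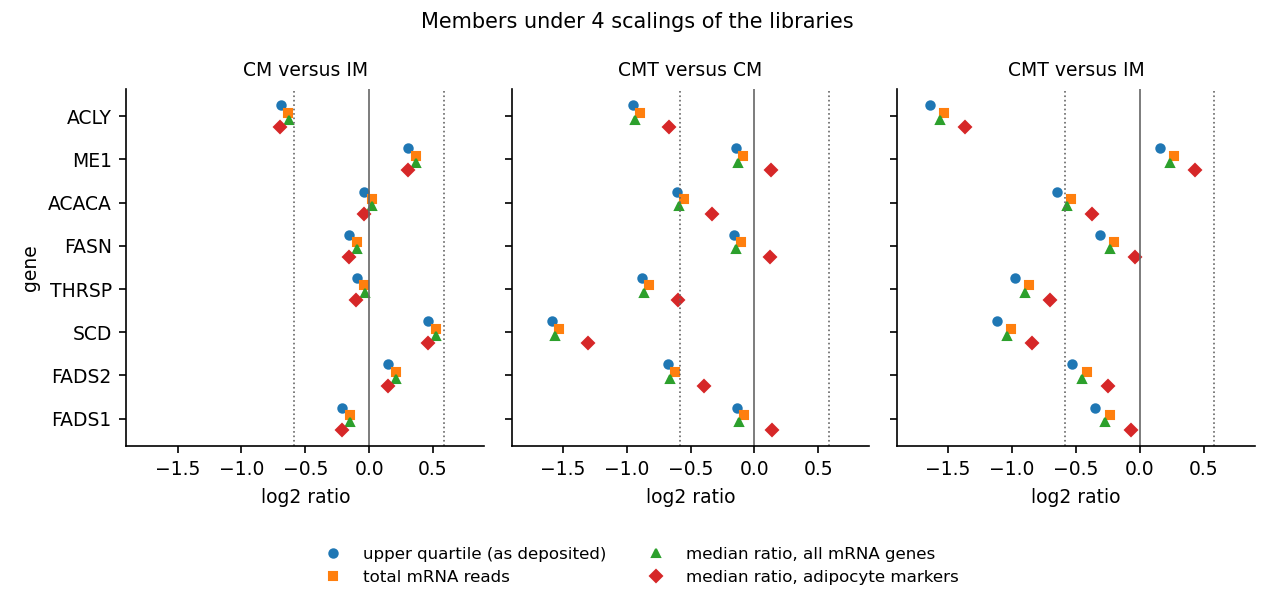
Log2 ratio of the 8 genes in the 3 comparisons under 4 scalings of the libraries, with the 1.5-fold thresholds as dotted lines. The scaling by adipocyte markers moves the genes up in both comparisons with CMT, and SCD, ACLY and THRSP stay below the lower threshold. THRSP does so by little against CM (-0.60).

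Ratios between genes of the route within a library do not depend on the scaling of the libraries. SCD stood at 0.699 (0.691 to 0.707) of the level of FASN in IM, at 1.07 (1.06 to 1.08) in CM and at 0.3998 (0.394 to 0.406) in CMT. The desaturase therefore exceeded the synthase in CM alone, and the 3 intervals did not overlap. FASN relative to ACLY was 1.64, 2.38 and 4.12, and ME1 relative to ACLY 0.145, 0.290 and 0.507. Both ratios were lowest in IM and highest in CMT. THRSP relative to FASN was 0.555, 0.577 and 0.350, so it was set apart in CMT. FASN relative to ACACA was 6.82, 6.30 and 8.60. For FADS2 relative to FADS1 the ratios were 2.495 (2.08 to 2.999), 3.20 (2.64 to 3.90) and 2.20 (1.79 to 2.73), and all 3 intervals overlapped.

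**Figure D4:**
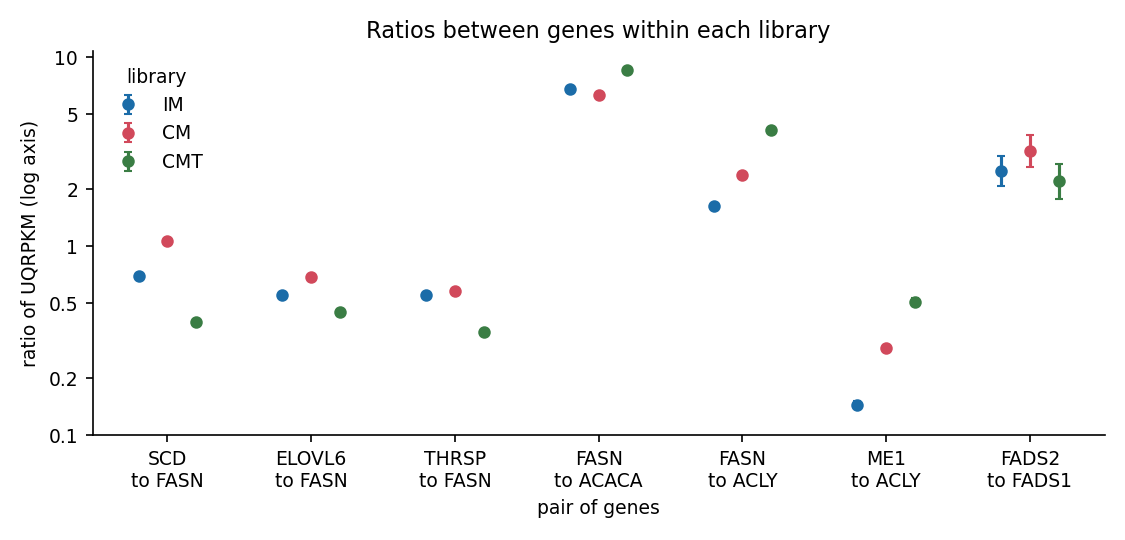
Ratio of UQRPKM between 2 genes of the route within each library (log axis), with 95% counting intervals. SCD to FASN is above 1 in CM alone, and FASN to ACLY and ME1 to ACLY are lowest in IM and highest in CMT.

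Genes that feed or control the route were taken from lists of related genes. Their calls were also made under the 3 other scalings, by total mRNA reads, by the median ratio of all mRNA genes and by adipocyte markers, named in that order below. Over all tested mRNA genes, the shares called higher and lower were 8.38% and 10.4% in CM versus IM, and 9.53% and 9.97% in CMT versus CM. In CMT versus IM they were 8.81% and 11.9%. By adipocyte markers, 2672 of 14089 genes were called higher and 812 lower in CMT versus CM. The counts on these short lists were not tested against such shares. Of 20 genes of citrate and NADPH supply, 19 could be tested. None was called in CM versus IM, and 3 were called lower and 0 higher in CMT versus CM, with a median log2 ratio of -0.26 that became 0.02 when the libraries were scaled by adipocyte markers. The 0 higher and 3 lower became 0 and 1, 0 and 2, and 1 and 0 under the other scalings. In CMT versus IM GPD1 alone was called, lower, but 1 gene higher and 0 lower were called by total mRNA reads and by adipocyte markers, and 1 and 1 by the median ratio. The gene called higher there was ME2, the mitochondrial malic enzyme, with 68.3, 79.7 and 99.1 UQRPKM. The median log2 ratios of all 5 lists described here were negative in CMT versus CM and positive, from 0.02 to 0.21, when scaled by adipocyte markers. TALDO1, transaldolase of the pentose phosphate pathway, had 8816, 11570 and 6609 UQRPKM, and its call in CMT versus CM was lost by adipocyte markers alone (log2 from -0.81 to -0.53). CS, the mitochondrial citrate synthase, had 1945, 2018 and 1334 and lost its call under all 3 other scalings. GPD1, which makes glycerol 3-phosphate, had 7876, 7479 and 4925, and kept its calls by the median ratio only. SLC25A1, the carrier that exports citrate from mitochondria, had 2611, 1863 and 2105 UQRPKM and was called in no comparison. PGD, an NADPH-forming enzyme of the pentose phosphate pathway, had 2606, 2435 and 1843 UQRPKM and was not called either. The citrate carrier was thus lowest in CM, unlike ACLY, which was lowest in CMT.

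Of 20 names for synthesis and elongation outside the set, 16 were listed and 15 tested. In CM versus IM 2 were called higher and 1 lower, in CMT versus CM 0 higher and 1 lower, and in CMT versus IM 1 higher and 3 lower. The shares over all tested genes were 8.38% and 10.4%, 9.53% and 9.97%, and 8.81% and 11.9%. None of the counts of this list held under all 3 other scalings. That in CM versus IM became 2 and 0 by total mRNA reads and by the median ratio. That in CMT versus CM became 2 and 1 by adipocyte markers, with MECR and ELOVL4 called higher, as were 2672 of 14089 tested genes. That in CMT versus IM became 1 and 0, 1 and 1, and 3 and 0. By the upper quartile, ELOVL4 and OLAH were the genes called higher, on at most 13 reads in a library. The 1 gene called lower in CMT versus CM was OLAH again, with 8 and 4 reads. AACS, the cytosolic acetoacetyl-CoA synthetase, had 749, 493 and 490 UQRPKM and was called lower in CM and in CMT relative to IM. By total mRNA reads (log2 -0.55 and -0.50) and by the median ratio (-0.54 and -0.53) both calls were lost, and by adipocyte markers that in CMT was (-0.34). ELOVL1, an elongase of very long chains, had 417, 360 and 260 UQRPKM and was called in CMT versus IM (log2 -0.68), but not by total mRNA reads (-0.57) or adipocyte markers (-0.40). ACACB, the carboxylase whose malonyl-CoA restrains mitochondrial fatty acid oxidation, had only 25.3, 18.4 and 16.2 UQRPKM, far under ACACA. Its call in CMT versus IM (log2 -0.64) was lost under all 3 other scalings (-0.53, -0.56 and -0.37). HSD17B12 and TECR, which act in every elongation cycle, were called nowhere. HSD17B12 had 1984, 1989 and 1962 UQRPKM.

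Among 6 listed genes of desaturation and electron supply, 5 were tested. SCD5, the other stearoyl-CoA desaturase, had 33.4, 19.4 and 20.5 UQRPKM from 123, 68 and 74 reads and was called lower in both CM and CMT relative to IM, the second not by adipocyte markers (log2 -0.43). It differed from SCD in being lower in CM than in IM, with a log2 ratio of -0.79 beside 0.46. CYB5A, the cytochrome b5 that passes electrons to desaturases, had 825, 1248 and 1059 UQRPKM and was called higher in CM versus IM. By adipocyte markers CYB5A was also called higher in CMT versus IM (log2 0.64). CYB5A is also abundant in liver, and ALB had 2.61, 2910 and 4.00 UQRPKM. Any part of liver RNA in these calls was not tested. None of the 4 tested acyl-CoA synthetases was called by the upper quartile, but ACSL3 was called higher in CMT versus IM under the 3 other scalings (log2 0.64, 0.61 and 0.81) and in CMT versus CM by adipocyte markers (0.75). ACSL1, the main form of adipocytes, had 4883, 5214 and 3962 UQRPKM.

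Of 31 names of regulators, 24 were listed and 21 tested. SREBF1, SREBF2 and PRKAA1 had 0 in each library, as ELOVL3 did among the elongases. These zeros were not read as absence, since 6 of 66 ribosomal protein genes were also listed at 0 throughout. In CM versus IM 1 regulator was called higher and 1 lower, beside 8.38% and 10.4% over all tested genes. In CMT versus IM 0 and 1 were called, beside 8.81% and 11.9%. In CMT versus CM 1 was called higher and 2 lower, beside 9.53% and 9.97%. The median log2 ratio there was -0.16, which turned to 0.12 under the scaling by adipocyte markers. Under that scaling CMT versus IM had 1 regulator higher, NFYB (log2 0.60), and 0 lower, beside 2475 and 856 of 14157 tested genes. SLC2A4, the insulin-responsive glucose transporter, had 161, 268 and 120 UQRPKM from 585, 928 and 426 reads. It was 1.66-fold higher in CM than in IM and 2.24-fold lower in CMT than in CM. AKT2, the insulin-signalling kinase, had 2132, 2681 and 1647 UQRPKM and was called lower in CMT versus CM (log2 -0.70), but not by adipocyte markers (-0.42). MLXIPL, which encodes ChREBP, had 525, 471 and 364 UQRPKM, with a log2 ratio of -0.37 in CMT versus CM, and was called in no comparison. INSIG1, which retains SREBP in the endoplasmic reticulum, had 229, 253 and 193 UQRPKM, and NR1H3, the liver X receptor alpha, had 783, 750 and 710. NFYA, called in all 3 comparisons but not in CMT versus IM by adipocyte markers, rested on 39, 14 and 23 reads.

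**Figure D5:**
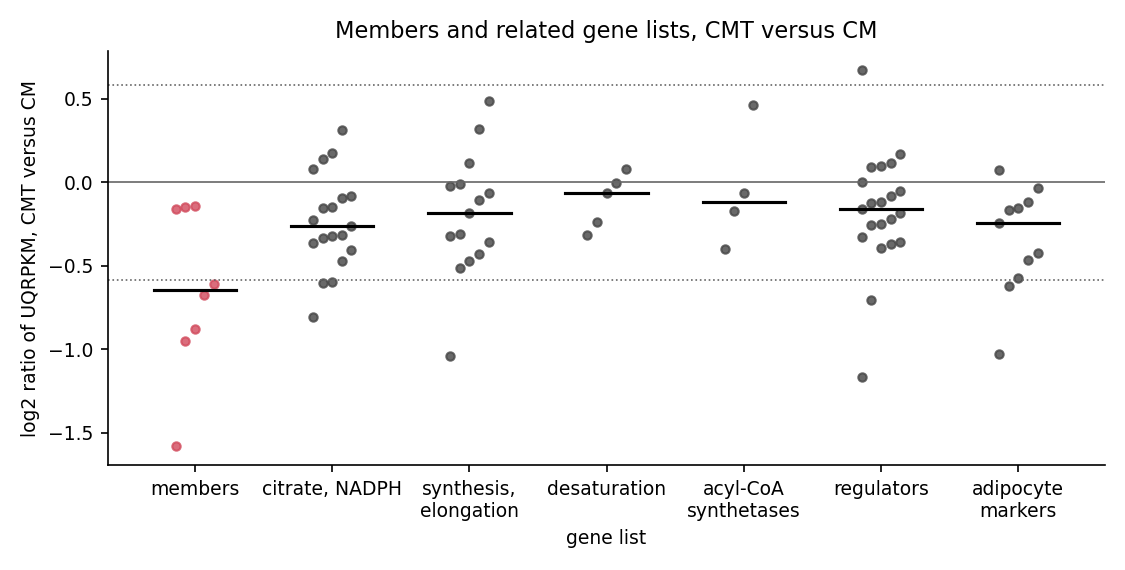
Log2 ratio in CMT versus CM of each tested gene of the set, of the related lists and of the adipocyte markers above 0, with the median of each list as a bar and the 1.5-fold thresholds as dotted lines. The set has a median of -0.64, the citrate and NADPH list one of -0.26 (0.02 when scaled by adipocyte markers) and the adipocyte markers one of -0.24.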

How the data were processed

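RNA of retroperitoneal fat was pooled by group and sequenced by the authors as 1 single-end library each for IM, CM and CMT on an Ion Proton instrument. Reads were filtered and aligned by the authors with MapSplice on Sscrofa 10.2, and the deposited values are RPKM scaled to each library's upper quartile (UQRPKM) for 34570 genes. The counting tool and annotation are not given in the sources used here. Per gene, the shortest length up to 120000 bases that made all values whole reads (relative tolerance 1e-08) gave the reads, at upper quartiles of 149, 142 and 146. Whole reads fitted 100% of 20838 genes above 0. Reads are lower limits where they share a factor. The upper quartile of recovered reads over all genes was 138, 132 and 136. Reads without molecular identifiers are not independent molecules.

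Main ratios used UQRPKM without a pseudocount, with the study's thresholds of 1.5-fold and 1 UQRPKM and, with 1 library per group, no test. The study's DEGSeq step was not run. The exact binomial test on reads was an alternative, and the scripts were tested on simulated data. Genes named are the 8 members, genes of the lists that were called or had high levels, and the 5 nearest in pattern. SLC25A1, PGD, HSD17B12, TECR, ELOVL3, FADS3, SREBF1, SREBF2, PRKAA1, MLXIPL, INSIG1, NR1H3, ME2, ACSL3, MECR, NFYB and single marker genes were named after their values were seen. Members and lists were chosen with earlier results of these data known. The pairs THRSP to FASN and FASN to ACLY were added after seeing the data. A planned search for promoter motifs was not run, as no sequences were used here. Marker lists covered adipocytes, hepatocytes, skeletal muscle, macrophages, endothelium, stroma and mesothelium. Analyses used Python 3.11.15, numpy 2.4.6, scipy 1.17.1 and pandas 2.3.3, with figures by matplotlib 3.10.9. Alternatives were other scalings, pseudocounts of 1 and 10 UQRPKM, filters, a 2-fold threshold and the inclusion of ELOVL6.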

Additional observations from a re-analysis of the deposited data

Results flagged for a closer look

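ELOVL6, which elongates palmitate to stearate, is listed as miscRNA and so lies outside the mRNA genes compared above, yet its signal was far above the 3 reads that a count of 0 would allow. It had 5648, 6321 and 3709 UQRPKM (IM, CM and CMT) from 3223, 3438 and 2074 reads, a level between those of ACACA and SCD in IM and CM. Its log2 ratio was 0.16 (0.09 to 0.23) in CM versus IM, -0.77 (-0.85 to -0.69) in CMT versus CM and -0.61 (-0.69 to -0.53) in CMT versus IM. By the same thresholds it would be called lower in both comparisons with CMT, 1.70-fold below CM and 1.52-fold below IM. Against IM it missed the threshold under all 3 other scalings, with log2 ratios of -0.49 by total mRNA reads, -0.53 by the median ratio of all mRNA genes and -0.33 by adipocyte markers, and against CM it missed it by adipocyte markers (-0.49). Relative to FASN in the same library it stood at 0.549, 0.684 and 0.448, highest in CM and lowest in CMT, as SCD did. The length recovered for it was 383 bases, the shortest that gave whole reads, so its reads are a lower limit.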

How the results depend on the processing

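The counts of genes called stayed within 1.5 times of 1, 5 and 4 (CM versus IM, CMT versus CM, CMT versus IM) under all alternatives but 2. At 2-fold they were 0, 1 and 2, which follows from the stricter threshold, and with scaling by adipocyte markers CMT versus CM had 3. With ELOVL6 counted, an alternative chosen after seeing the data, they were 1, 6 and 5. The log2 ratio of ACACA in CMT versus CM was -0.55 when scaled by total mRNA reads, and in CMT versus IM it was -0.54 with that scaling and -0.57 with the median ratio of all mRNA genes, each short of the threshold. In CMT versus IM the split of all called genes, 1246 higher and 1690 lower, became 1617 and 1243 with total mRNA reads and 1494 and 1357 with the median ratio. Called ratios kept their sign under every alternative. Among the ratios not called, ACACA in CM versus IM turned positive with both of these scalings, and FASN, ME1 and FADS1 in CMT versus CM with that by adipocyte markers. The scalings by total reads, median ratio and adipocyte markers moved all log2 ratios by at most 0.11, 0.08 and 0.28. Pseudocounts moved no ratio by more than 0.04. No paired analysis was possible because each group has 1 library. Counting limits FADS1 and FADS2 most, and the spread between pigs was not measured.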

Other observations

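Among 7385 other mRNA genes with at least 50 UQRPKM in all libraries, those whose log2 ratios in CM versus IM and CMT versus CM lay nearest to the median pair of the 8 genes (-0.07 and -0.64) were DHX58, AFAP1L1, HEYL, SLC25A13 and GPD1. Their distances were between 0.01 and 0.04 on the log2 scale, over 3 libraries only. GPD1 had 7876, 7479 and 4925 UQRPKM in IM, CM and CMT, and SLC25A13, a mitochondrial aspartate and glutamate carrier, had 92.9, 87.6 and 54.8. Within a distance of 0.25 there were 186 genes, or 2.52% of those compared, and 3 of the 8 genes of the set, so the median describes few of its own members.

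Other cell types were measured beside the set. The 8 listed macrophage markers summed to 1165, 1286 and 1076 UQRPKM, the 5 endothelial markers to 8648, 7702 and 8315, and the 7 markers of stroma to 72817, 70380 and 68908. The 6 listed mesothelial markers summed to 121, 205 and 495 UQRPKM, highest in CMT, of which KRT8 held 51.2, 102 and 307. MSLN had 6.47, 15.4 and 59.5, and UPK3B and WT1 were also highest in CMT. KRT18 went the other way, with 28.7, 26.7 and 14.4, and LRRN4 was listed at 0 throughout. The part of these cell types in the differences of the fatty acid synthesis genes was not tested.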
